A study of Mus musculus with 2 samples.

Results

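Creb5 and Erg are 2 of the 32286 features counted in each of 2 droplet single-cell RNA libraries of mouse knee joint cartilage, and both were found by symbol in both count matrices. The cells came from Procr-CreER;tdTomato mice, in which tamoxifen lets a Cre recombinase made where Procr is active switch on the tdTomato reporter permanently. All mice were given tamoxifen at 4 weeks of age. The pulse library was collected 2 days later and the trace library 4 weeks later, so the mice of the trace library were also older. Each library pooled 3 mice. Besides articular cartilage, the extraction protocol also mentions cells of the periosteum. The sort kept cells negative for CD45, Ter119, CD31 and DAPI and positive for tdTomato, which excludes most blood, endothelial and dead cells. With 1 library per group there is no test of pulse against trace. All intervals below are exact 95% intervals for counting error only, and they do not cover differences between mice.

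Creb5 is a transcription factor of the CREB/ATF family, whose basic leucine zipper binds the cAMP response element. Erg is a transcription factor of the ETS family, whose DNA-binding domain recognises a GGAA core. Both are known from work on joints as factors that promote Prg4, which encodes lubricin, the boundary lubricant made by surface chondrocytes and by the lining of the synovium. Erg is also a defining factor of endothelial cells and is active in early blood cells. Acan encodes aggrecan, the large proteoglycan that gives cartilage its resistance to compression.

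The 4 genes have the following places in GENCODE M21 (GRCm38, the assembly also called mm10). Creb5 (ENSMUSG00000053007) lies on the plus strand at chr6:53287270-53700376 and spans 413 kb. Erg (ENSMUSG00000040732) lies on the minus strand at chr16:95359169-95586593 and spans 227 kb. Prg4 (ENSMUSG00000006014) is at chr1:150449412-150466165 on the minus strand, and Acan (ENSMUSG00000030607) at chr7:79053483-79115099 on the plus strand. The Creb5 span also holds 2 small genes on its own strand, Gm25818 and Gm44080, and how reads there were counted was not examined.

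The promoters are shown because the families of both factors bind short motifs that can be read in them. The sequences are RefSeq's (GRCm38.p6), upstream of the start site and read 5′ to 3′ on the gene's strand, with motif matches in capitals. The 250 bases before each start were searched on both strands for TGACGTCA (the cAMP response element), TGACTCA (the AP-1 site), and the ETS sites CCGGAAGT and CAGGAAG. The first line is Creb5's start 1, chr6:53287053-53287269 on the plus strand, up to the first annotated exon. The second is Erg's start 1, chr16:95586594-95586843 on the minus strand. The last is Erg's start 3, chr16:95459349-95459598 on the minus strand, inside the gene but in none of its annotated exons.
Creb5 start 1: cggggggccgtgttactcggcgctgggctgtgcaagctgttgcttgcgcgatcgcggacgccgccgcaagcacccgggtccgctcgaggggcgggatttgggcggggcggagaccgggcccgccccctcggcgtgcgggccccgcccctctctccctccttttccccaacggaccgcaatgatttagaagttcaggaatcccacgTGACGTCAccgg
Erg start 1: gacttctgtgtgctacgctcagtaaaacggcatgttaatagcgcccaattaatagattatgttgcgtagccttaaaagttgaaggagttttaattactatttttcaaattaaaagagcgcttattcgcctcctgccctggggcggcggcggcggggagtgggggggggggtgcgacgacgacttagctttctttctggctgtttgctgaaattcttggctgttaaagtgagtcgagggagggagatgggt
Erg start 3: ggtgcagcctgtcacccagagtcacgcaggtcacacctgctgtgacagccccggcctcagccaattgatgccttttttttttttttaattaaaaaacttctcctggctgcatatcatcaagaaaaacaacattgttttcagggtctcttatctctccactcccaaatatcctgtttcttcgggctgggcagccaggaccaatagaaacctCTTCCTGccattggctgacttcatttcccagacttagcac
Start 1 of Creb5 had TGACGTCA at 38 to 45 bases before it, a match held by 1.55% of 32851 mouse promoter windows of this length. Start 2 of Creb5 had TGACTCA at 39 to 45 bases before it, inside an annotated first exon, a match held by 4.46% of windows. Start 3 of Erg had CAGGAAG on the reverse strand, written as CTTCCTG, at 34 to 40 bases before it, a match held by 10.8% of windows. No window of Prg4 was at hand, so its promoter was not searched. The windows of Erg's other 2 starts and of Acan's start held none of the 4 motifs. CCGGAAGT was in none of these windows and in 2.88% of all. Which start site was used cannot be read from counts per gene.

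The pulse library held 23306063 UMIs (unique molecular identifiers, 1 per captured RNA molecule) in 6863 barcodes, and the trace library 40284041 UMIs in 10423 barcodes. Cells with 500 or more genes and at most 10% mitochondrial UMIs numbered 6533 and 9247, with medians of 2837 and 3645 UMIs. The libraries shared 16 barcodes. Besides time and age, they differed in sex-linked RNA, with Xist at 0.13 and 360 CPM (UMIs per 1000000 UMIs of the summed cells) and Ddx3y at 184 and 0.331 CPM, and in ribosomal RNA-associated transcripts, which took 0.961% and 8.89% of UMIs. Time, age and sex cannot be told apart in any value of trace against pulse.

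Cells were assigned to types by how many markers of a type were detected, with Creb5, Erg, Prg4 and Acan left out of all marker lists. The surface chondrocyte gate (at least 4 of 9 chondrocyte and 3 of 6 surface markers) held 3456 pulse cells, 52.9%, and 3911 trace cells, 42.3%. Its summed surface markers, led by Cilp, stood at 17888 and 30157 CPM, against 483 and 1200 CPM in the deeper chondrocyte gate. The same markers stood at 18647 and 21252 CPM in the gate of connective cells marked by Npy and Angptl7, again led by Cilp, so they do not mark surface chondrocytes alone. The surface gate was the most populated in both libraries, and the label of superficial cells did not cover all cells. The other gates were deeper chondrocytes (551 pulse and 103 trace cells), synovial lining fibroblasts (241 and 619), loose connective tissue fibroblasts (130 and 449), connective cells marked by Npy and Angptl7 (77 and 111), osteoblasts (29 and 111), mural cells (23 and 235) and endothelial cells (49 and 303). Neutrophils (236), B lineage cells (130) and monocytes, macrophages and progenitors (54) reached more than 4 cells in the trace library only. No gate took in 1442 and 2009 shallower cells, with medians of 1803 and 2000 UMIs. Cells in both the surface and the deeper gates (218 and 146) were kept as a group of their own, 21 trace cells were erythroid, and 310 and 809 cells in other pairs of gates were set apart.

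Creb5 was highest in the synovial lining, and was also high in loose connective tissue fibroblasts, surface chondrocytes and the Npy and Angptl7 connective cells. Its level in the synovial lining gate was 1489 CPM (1393 to 1590) in the pulse library and 988 CPM (950 to 1027) in the trace library, the highest level of any gate of at least 20 cells in each. Loose connective tissue fibroblasts followed with 1175 (1050 to 1311) and 437 CPM (405 to 471). Surface chondrocytes held 785 (769 to 802) and 423 CPM (414 to 432), and the Npy and Angptl7 connective cells 713 (594 to 849) and 312 CPM (264 to 366). All of these connective and surface cells stood well above the deeper chondrocytes, which held 181 (168 to 194) and 45.7 CPM (30.1 to 66.5).

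Among these connective and surface cells, some neighbours in Creb5 level could not be separated by their intervals. They were surface and Npy and Angptl7 cells in pulse, and loose connective and surface cells in trace. Mural cells held 205 CPM (88.5 to 404) in pulse and 159 CPM (128 to 195) in trace. Osteoblasts held 154 (73.9 to 283) and 50.4 CPM (30.8 to 77.8), and endothelial cells 153 (94.8 to 234) and 58.7 CPM (43.8 to 76.9). In pulse the mural, deeper chondrocyte, osteoblast and endothelial levels overlapped, and in trace the endothelial, osteoblast and deeper chondrocyte levels did. In trace the lowest levels were those of blood cells. Erythroid cells held 13.1 CPM (1.58 to 47.1) from 2 UMIs in 21 cells, and neutrophils 15.9 CPM (7.96 to 28.5). B lineage cells held 32.2 (16.6 to 56.2) and monocytes, macrophages and progenitors 33.2 CPM (14.3 to 65.5). Neutrophils also held 513 CPM of Prg4 (461 to 569), a lubricin RNA that blood cells should lack, and such values were taken as the background of free RNA. Creb5 in trace deeper chondrocytes, osteoblasts and endothelial cells had intervals above that of neutrophils. They overlapped those of B lineage cells and of monocytes, macrophages and progenitors, so these levels are not read as expression.

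Erg had another order, led by endothelial cells and then by surface chondrocytes. Endothelial cells that remained after the CD31 sort held 635 CPM (508 to 783) in pulse and 552 CPM (504 to 603) in trace. Surface chondrocytes held 350 (339 to 361) and 283 CPM (276 to 291). The Npy and Angptl7 connective cells came next in pulse with 181 CPM (124 to 256), and held 64.8 CPM (44 to 92) in trace. Erg was low in the synovial lining, with 20.1 CPM (10.4 to 35.1) and 10.2 CPM (6.75 to 14.9), and in loose connective tissue fibroblasts, with 14.6 (3.98 to 37.4) and 3.87 CPM (1.42 to 8.43).

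Deeper chondrocytes held 42.3 CPM of Erg (36.2 to 49.2) in pulse and 27.1 CPM (15.5 to 44) in trace. No Erg UMI was found in 111 trace osteoblasts, where the interval reached 9.29 CPM, or in 23 pulse mural cells, where it reached 94.6 CPM. Trace mural cells held 15.7 CPM (7.18 to 29.8), and 29 pulse osteoblasts 46.2 CPM (9.53 to 135) from 3 UMIs. Among trace blood cells Erg was at 229 CPM (195 to 268) in neutrophils, 153 CPM (116 to 198) in B lineage cells and 74.8 CPM (44.3 to 118) in monocytes, macrophages and progenitors. The last interval overlapped that of pulse osteoblasts. The B lineage UMIs sat in few cells, 57 UMIs in 13 of 130 cells or 4.38 per cell with a UMI, against 158 UMIs in 81 of 236 neutrophils or 1.95 per cell with a UMI. In the order of Erg levels in trace, surface chondrocytes stood above neutrophils, while from neutrophils through B lineage cells and monocytes to the Npy and Angptl7 cells the intervals of neighbours overlapped. In pulse the interval of osteoblasts overlapped those of Npy and Angptl7 cells and of deeper chondrocytes. Those of the synovial lining and the loose connective cells also overlapped.

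**Figure D1:**
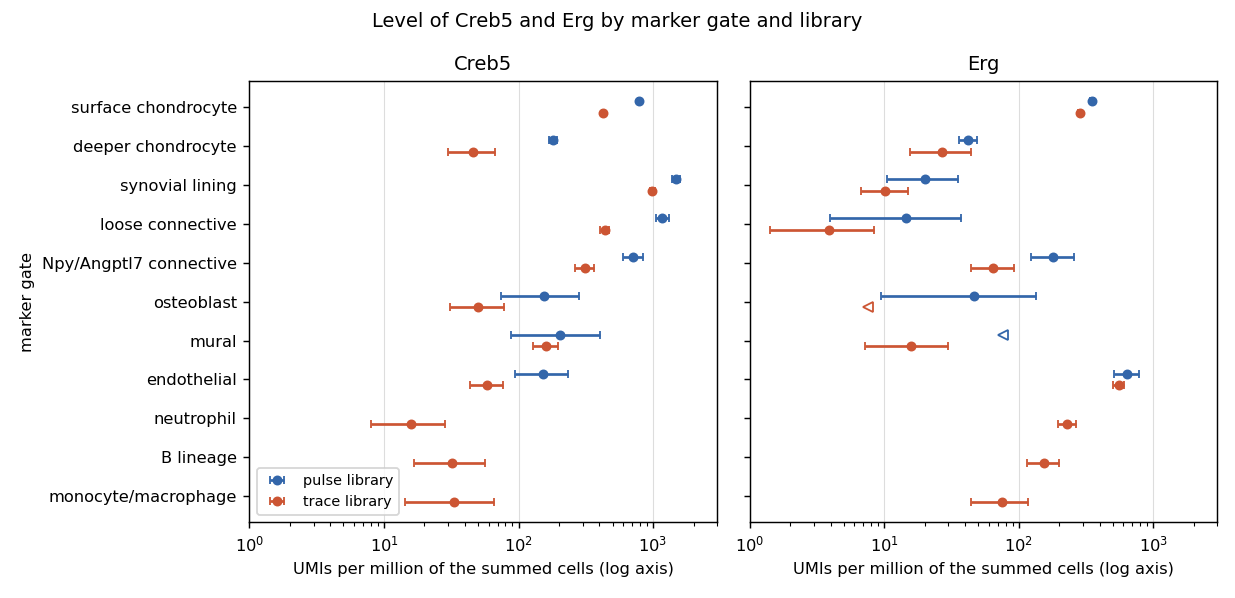
Creb5 (left) and Erg (right) in CPM, on a log axis, for each marker gate with at least 20 cells, in the pulse (blue) and trace (orange) library, leaving out erythroid cells. Points are the level of 1 library, bars its exact 95% counting interval, and open triangles the level that 3 counts would give where no UMI was found. Creb5 is highest in the synovial lining, at 1489 and 988 CPM, and Erg in endothelial cells, at 635 and 552 CPM.

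Cells in both chondrocyte gates held 432 CPM of Creb5 (402 to 464) in pulse and 248 (221 to 277) in trace, and 156 (138 to 175) and 216 CPM (192 to 244) of Erg, between the levels of the surface and the deeper gate. Cells in no gate held 760 and 409 CPM of Creb5 and 220 and 136 CPM of Erg, so the members were not confined to gated cells. Erythroid cells had 2 UMIs of Creb5 and 5 of Erg.

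The share of cells with a UMI gave a similar picture at matched depth, apart from Erg in trace deeper chondrocytes. Each cell was thinned at random to 2000 UMIs, which left out 1768 pulse and 2021 trace cells below that depth. Creb5 was then detected in 87.2% of synovial lining cells in pulse and 70.1% in trace (83.4% and 85.5% before thinning). In surface chondrocytes it was detected in 64.1% and 47.5% (73.4% and 67.6% before). In deeper chondrocytes it was detected in 19.8% and 8.42% (33.9% and 12.6%), and in trace neutrophils in 2.22% (3.39%, at a median of 2249 UMIs against 4365 for surface cells).

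Erg was detected after thinning in 38.4% and 36.8% of surface chondrocytes (48.1% and 55.7% before). The endothelial shares were 77.8% and 58% (61.2% and 60.1%), from 27 and 188 cells at this depth. In deeper chondrocytes Erg was detected in 6.55% and 1.05% (15.6% and 10.7% before), the trace share being 1 of 95 cells. In the synovial lining Erg was detected in 3.85% and 2.23% of cells (2.9% and 3.23%), the type that serves as its background here. Detection of Erg in surface chondrocytes was thus far above that background in both libraries.

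Against surface chondrocytes of the same library, deeper chondrocytes had 4.35-fold less Creb5 (4.03 to 4.69) in pulse. In trace the levels were 45.7 against 423 CPM. No fold is given there because the lower level overlapped that of blood cells other than neutrophils. Erg was 8.27-fold lower in deeper than in surface cells (7.09 to 9.7) in pulse and 10.5-fold lower (6.43 to 18.3) in trace. The trace fold rested on 16 UMIs in 103 deeper cells, and 1 of 95 held an Erg UMI after thinning. Both members were more than 2-fold lower in both libraries, as were 14.1% of 6995 genes in pulse and 14.5% of 6158 genes in trace. Prg4 had the same direction, with 9352 CPM in surface and 70.9 CPM in deeper cells in pulse, and 28073 and 174 CPM in trace. Acan did not separate the zones by 2-fold, with 3187 against 2883 CPM in pulse and 3956 against 2101 CPM in trace.

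The synovial lining set the members apart. Creb5 was 1.9-fold higher there than in surface chondrocytes (1.77 to 2.03) in pulse and 2.34-fold higher (2.23 to 2.44) in trace. It passed 2-fold only in trace, where 16.2% of 6407 genes did so, against 20.8% of 7084 genes in pulse. Erg was 17.4-fold lower (9.97 to 33.8) in pulse and 27.7-fold lower (19 to 42) in trace, a direction past 2-fold for 18.1% and 15.2% of genes. The lining held only 12 and 27 Erg UMIs and is the type taken as the background of Erg. Prg4 was high in both cell types, at 28490 and 26876 CPM in the synovial lining. Prg4-rich synovial lining cells therefore held much Creb5 and little Erg, and surface chondrocytes held both. The size of the Erg difference moved with the definition of the lining. Its log2 ratio was -4.12 in pulse and -4.79 in trace with these gates, -2.76 in pulse when the gates asked for 1 more marker, and -3.22 and -3.47 when joint clusters replaced the gates.

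Endothelial cells had the reverse order. Erg was 1.81-fold higher there than in surface chondrocytes (1.45 to 2.24) in pulse and 1.95-fold higher (1.77 to 2.14) in trace, while Creb5 was 5.12-fold lower (3.35 to 8.28) in pulse. In trace Creb5 was at 58.7 against 423 CPM, again with no fold because of the overlap with blood cells other than neutrophils. Lower by 2-fold there were 18.2% of 7639 and 17.9% of 6787 genes. The summed Prg4 of endothelial cells was 737 and 424 CPM. The pulse value came from 9 of 49 cells. The trace value was no higher than the 513 CPM of neutrophils taken as background, so it is not read as expression. Endothelial RNA in the surface gate was scarce, with the 9 endothelial markers at 14.8 and 11.3 CPM in sum, against 5376 and 5906 CPM in the endothelial gate. Surface cells that also passed the endothelial gate had been set apart, so a low sum was partly fixed by the gating.

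Over the 16 combinations of gate and library with at least 50 cells, Creb5 and Prg4 had a Pearson correlation of 0.79 on the log2(CPM + 10) scale, and Erg and Prg4 one of 0.01. Creb5 with Acan gave 0.20, Erg with Acan 0.30, and Creb5 with Erg -0.20. These combinations share libraries, depth and free RNA, so the values are a description. Prg4 was 228th of 6965 genes in likeness to Creb5.

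**Figure D2:**
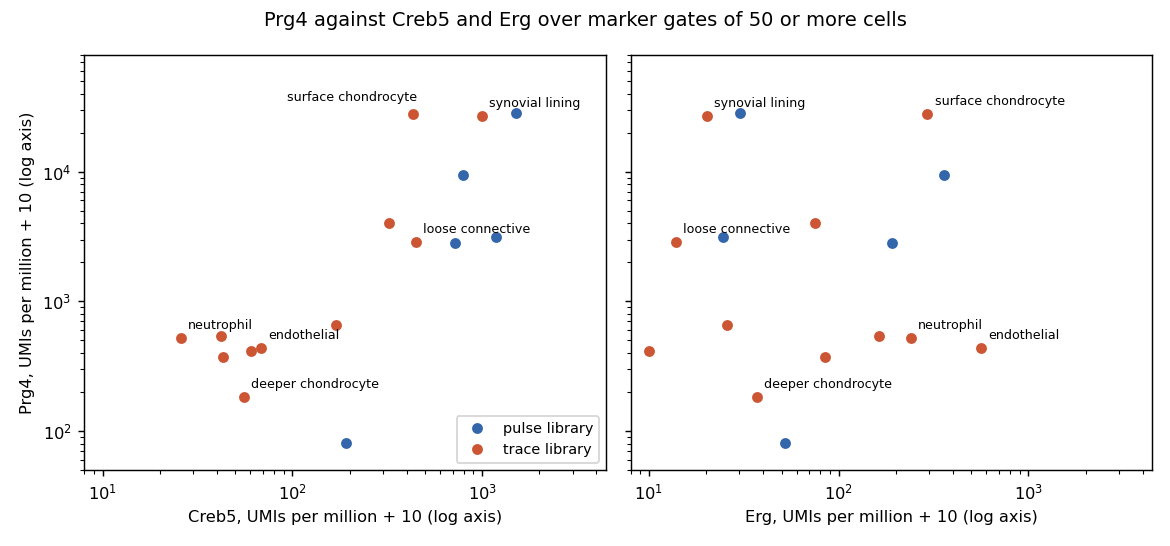
Prg4 (vertical) against Creb5 (left) and Erg (right), each as CPM plus 10 on log axes. Each of the 16 points is 1 marker gate in 1 library, with 50 or more cells, blue for pulse and orange for trace, and names are written beside 6 trace points. Gates rich in Prg4 are rich in Creb5 (r = 0.79), whereas gates rich in Erg lie at both high and low Prg4 (r = 0.01).

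The genes whose pattern over these combinations was closest to that of Creb5 were Ntn4 (0.96, from 5.36 to 1803 CPM), Medag (0.96, from 8.31 to 1359 CPM), Ndfip1 (0.96, from 106 to 335 CPM), Sema3e (0.95, from 8.05 to 755 CPM) and Olfm1 (0.95, from 0 to 67.5 CPM). Ntn4 encodes a netrin of basement membranes, Sema3e a secreted semaphorin, Olfm1 a secreted olfactomedin protein and Ndfip1 an adaptor of ubiquitin ligases. Those closest to Erg were Itsn2 (0.94, from 43.2 to 219 CPM), Sp4 (0.87, from 10.1 to 55.2 CPM), Sgk3 (0.86, from 10.5 to 101 CPM), Ogt (0.85, from 86.5 to 254 CPM) and March7 (0.84, from 89.1 to 248 CPM). Itsn2 encodes a scaffold of endocytosis, Sp4 a zinc finger transcription factor, Sgk3 a kinase and March7 a ubiquitin ligase. Ogt encodes the enzyme that adds O-linked N-acetylglucosamine to proteins in the cytosol and nucleus. Over the same 16 combinations Erg ran from 0 to 552 CPM, a wider range than that of any of these 5 genes.

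Between the libraries, Creb5 was lower in trace in most cell types. In surface chondrocytes the 785 CPM of pulse and the 423 CPM of trace made a ratio of 0.539 (0.522 to 0.555) or a log2 ratio of -0.89. The median log2 ratio of the 6198 genes compared there was -0.24, and 11.6% of genes had a lower ratio than Creb5. Relative to that median Creb5 was at -0.65. Of the 9 gates compared, counting the cells in both chondrocyte gates, 8 had a Creb5 interval wholly below a ratio of 1. The mural gate spanned 1 (0.774, 0.377 to 1.85). The median gene was also lower in trace in each of the 9 gates, at log2 ratios from -0.75 to -0.23. Over the 8 gates, the share of genes with a lower ratio than Creb5 ran from 5.88% in deeper chondrocytes to 29.1% in the synovial lining. In mural cells the log2 ratio of Creb5 was -0.37, above that of the median gene at -0.75, and 62.2% of genes had a lower ratio.

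Creb5 was lower by 2-fold or more in 5 of these gates. The ratio was 0.253 in deeper chondrocytes (0.166 to 0.371), where 20.5% of genes were lower by as much, and 0.372 in loose connective tissue fibroblasts (0.325 to 0.426), where 16.1% were. It was 0.437 in Npy and Angptl7 cells (0.343 to 0.559), beside 22.2% of genes, 0.383 in endothelial cells (0.227 to 0.669), beside 19.9%, and 0.327 in osteoblasts (0.146 to 0.782), beside 39.9%. It did not reach 2-fold in surface chondrocytes, where 9.2% of genes were lower by as much, in the synovial lining (0.663, 0.615 to 0.717, beside 11.6%), in cells of both chondrocyte gates (0.574, 0.501 to 0.655, beside 14.6%) or in mural cells (beside 43%). Among the gates with a low ratio were endothelial cells, osteoblasts and deeper chondrocytes, whose trace level overlapped that of blood cells other than neutrophils. The part of free RNA in their ratios was not tested.

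Erg differed less in surface chondrocytes, where 350 CPM (pulse) and 283 CPM (trace) made a ratio of 0.809 (0.776 to 0.843) and a log2 ratio of -0.31. Relative to the median gene this left -0.06, so scaling to the median gene removed nearly all of the difference. In endothelial cells the ratio was 0.869 (0.691 to 1.1), and in deeper chondrocytes 0.64 (0.357 to 1.07), both spanning 1. The synovial ratio of 0.51 (0.25 to 1.11) and the loose connective ratio of 0.265 (0.0629 to 1.28) rested on 12 and 4 pulse UMIs. Npy and Angptl7 cells had a ratio of 0.358 (0.211 to 0.606), where 10.9% of genes had a lower ratio. Cells in both chondrocyte gates had one of 1.39 (1.17 to 1.65), where 88.6% of genes had a lower ratio. Of 9 gates, the interval lay below 1 in 3, above 1 in 1 and across it in 5. The 3 gates included osteoblasts, with 3 Erg UMIs in pulse and 0 in trace. The median gene had a ratio below 1 in all 9 gates.

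Prg4 in surface chondrocytes went the other way, from 9352 to 28073 CPM, a ratio of 3 (2.98 to 3.02), while Acan had a ratio of 1.24 (1.23 to 1.26). Prg4 was nearly equal between libraries in the synovial lining, with a ratio of 0.943 (0.928 to 0.959). The trace surface chondrocytes thus held more Prg4 with less Creb5, and their Erg differed little. Leaving out mitochondrial and ribosomal RNA-associated transcripts gave log2 ratios of -0.77 for Creb5 and -0.18 for Erg.

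**Figure D3:**
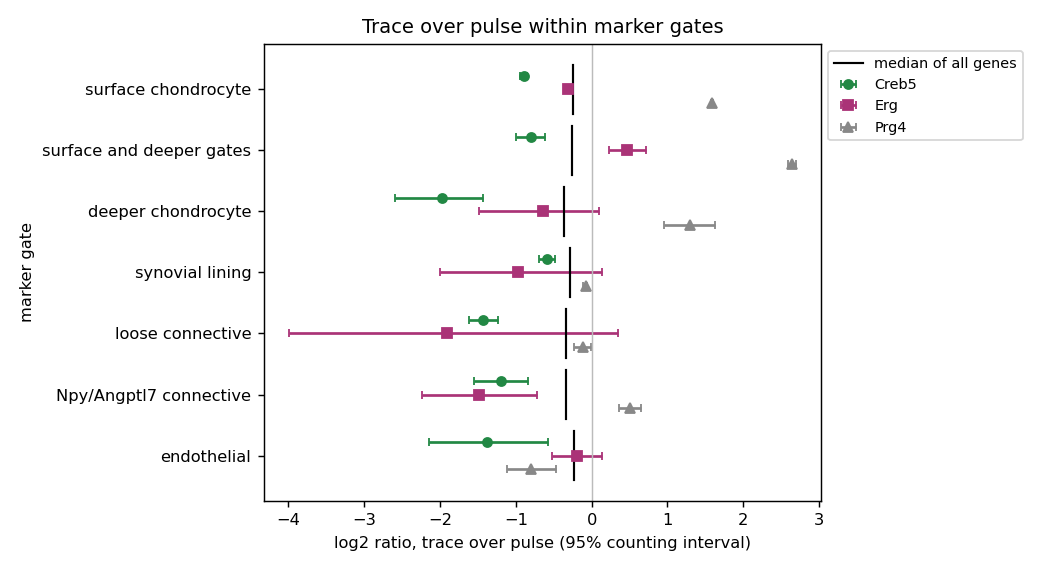
Log2 ratio of trace over pulse for Creb5 (green circles), Erg (purple squares) and Prg4 (grey triangles) within 7 marker gates. Bars are exact 95% counting intervals of 1 library against 1 library, and the black line in each row is the median of all genes compared in that gate. Creb5 lies left of the median gene in all 7 shown, at -0.89 in surface chondrocytes, while Prg4 is at 1.59 there. The osteoblast and mural gates, with 29 and 23 pulse cells, are not shown. In these Creb5 is at -1.61 and -0.37 and the median gene at -0.74 and -0.75, so mural Creb5 lies right of it.

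Within surface chondrocytes, the mean Prg4 of cells with and without a Creb5 UMI was compared at matched depth. After thinning, 2805 pulse and 3544 trace cells were compared, each with 2000 UMIs. Pulse cells with a Creb5 UMI (1798 cells) held a mean of 19 Prg4 UMIs and those without (1007 cells) 19.1, a ratio of 0.991 (0.973 to 1.01). In trace the means were 52.6 and 56.1 in 1683 and 1861 cells, a ratio of 0.938 (0.929 to 0.946). The intervals are too narrow for this purpose, because cells differ by more than counting error. Over 10 further random thinnings the ratio ran from 0.963 to 1.05 in pulse, and from 0.882 to 0.927 in trace, all just under that of the reported draw.

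Erg gave nearly the same result for Prg4. Cells with and without an Erg UMI held 18.7 and 19.2 Prg4 UMIs in pulse, with ratios of 0.949 to 1.02 over the 10 thinnings, and 52.1 and 55.8 in trace, with 0.883 to 0.935. With joint clusters in place of the gates the trace log2 ratio for Creb5 was 0.02 instead of -0.09. The Spearman correlations of Creb5 with Prg4 over surface cells were 0.01 in pulse and -0.06 in trace. Those of Erg with Prg4 were 0.00 and -0.04, where the median gene had 0.00 and -0.01. Of 3436 genes in pulse, 57.9% had a lower correlation than Creb5 and 46.3% than Erg. Of 3070 genes in trace, 6.51% and 14.4% did. All 10 trace thinnings had a ratio below 1 for both members. A higher mean of Prg4 in cells with either member was not detectable at this depth. The share of cells with any Prg4 UMI was 95.1% with and 91.9% without Creb5 in pulse, and 99.4% and 97.8% in trace. For Erg these shares were 95.2% and 93.2% in pulse, and 98.8% and 98.4% in trace.

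Ordering the same cells by Prg4 and dividing them into 5 equal groups gave mean Creb5 UMIs per cell of 1.29, 1.84, 1.66, 1.67 and 1.45 in pulse, from lowest to highest Prg4. In trace they were 0.994, 0.975, 0.876, 0.79 and 0.71. Erg was 0.656, 0.884, 0.75, 0.708 and 0.649 in pulse and 0.666, 0.611, 0.614, 0.584 and 0.489 in trace. Both members were thus lowest at both ends of Prg4 in pulse, and in trace they were lowest in the cells richest in Prg4.

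Surface cells with either member held less Acan in both libraries. Cells with a Creb5 UMI held 5.98 Acan UMIs against 7.16 without in pulse, and 6.7 against 8.45 in trace. The ratios over 10 thinnings were 0.788 to 0.855 and 0.776 to 0.836, all below 1. For Erg the Acan means were 6.13 against 6.58 in pulse and 6.78 against 8.1 in trace, with ratios of 0.897 to 0.959 and 0.767 to 0.845. By Creb5 count, Acan was 7.16 in cells with 0, 6.93 with 1, 6.01 with 2 and 4.78 with 3 or more UMIs in pulse, and 8.45, 7.28, 6.47 and 5.27 in trace. By Erg count it was 6.58, 6.41, 6.38 and 5.1 in pulse and 8.1, 7.25, 6.53 and 5.06 in trace.

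Seen from Acan, Creb5 went in pulse from 2.15 UMIs per cell in the group lowest in Acan, through 1.85, 1.37 and 1.46, to 1.09 in the highest. In trace it went from 1.17 through 0.962, 0.884 and 0.803 to 0.527. Erg went from 0.898 to 0.61 in pulse and from 0.812 to 0.393 in trace. The Spearman correlation of Creb5 with Acan was -0.18 in pulse and -0.14 in trace, lower than that of all but 0.349% of 3436 genes and 0.521% of 3070 genes. That of Erg was -0.06 and -0.12, with 12.5% and 1.04% of genes lower. Acan and Prg4 themselves had -0.01 in pulse and 0.21 in trace.

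**Figure D4:**
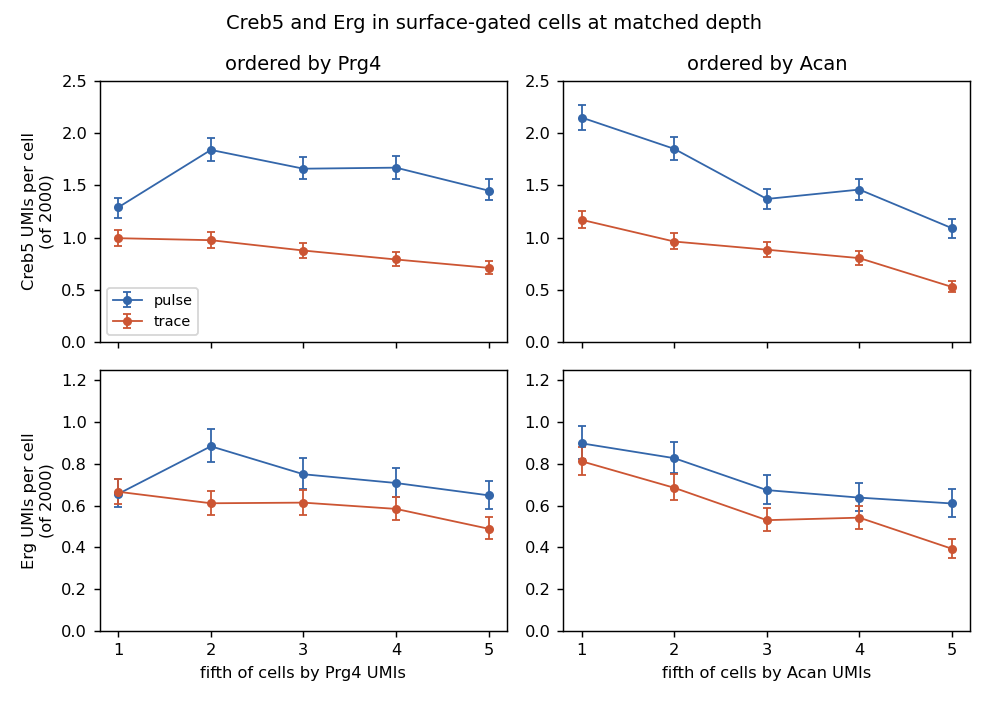
Mean Creb5 (top) and Erg (bottom) UMIs per cell, of 2000, in surface-gated cells divided into 5 equal groups by their Prg4 (left) or Acan (right) UMIs, from lowest (1) to highest (5), with ties in file order. Bars are exact 95% counting intervals, with 2805 pulse cells in blue and 3544 trace cells in orange. Creb5 declines with Acan from 2.15 to 1.09 in pulse and from 1.17 to 0.527 in trace, and has no such decline with Prg4 in pulse.

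Col10a1, the collagen of hypertrophic cartilage, moved with these values. Pulse surface cells with a Creb5 UMI held 7.65 Col10a1 UMIs against 10.4 without, and trace cells 3.28 against 4.01. For Erg the values were 6.26 against 10.1 and 2.84 against 4.14. Among surface cells with no Col10a1 UMI, the log2 ratio of Acan for Creb5 was -0.16 in both libraries instead of -0.26 and -0.33. For Erg it was 0.12 in pulse instead of -0.10, the other direction, and -0.16 in trace instead of -0.26. The lower Acan of cells with Creb5 was therefore also present without Col10a1 but smaller, and that of cells with Erg was not in pulse.

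Creb5 and Erg were found together somewhat more often than separate draws would give, and other pairs of genes were not compared. In pulse 755 of 2805 surface cells (26.9%) had both, where independence gives 691, and in trace 703 of 3544 (19.8%), where independence gives 619. Cells with an Erg UMI held 1.36 times the Creb5 of those without (1.28 to 1.44) in pulse and 1.4 times (1.31 to 1.51) in trace. Here too the intervals are too narrow, because cells differ by more than counting error. Cells with either member also held less Col10a1, and the part of such shared differences was not tested. Cells with both had the least Acan, 5.67 UMIs in pulse and 5.93 in trace, against 7.16 and 8.77 in cells with neither. Their Prg4 was 18.6 against 19.2 in pulse and 48.7 against 56.1 in trace. Cells with Creb5 alone held 6.21 and 7.24 Acan UMIs, and those with Erg alone 7.18 and 7.77.

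In lining cells of 1 thinning, the mean Prg4 was 62.2 UMIs in 136 pulse cells with Creb5 and 39.1 in 20 without. In trace the means were 51.2 and 47.2 in 378 and 161 cells. The Spearman correlations were 0.12 and 0.07, where the median gene had -0.01 and -0.02. Lower correlations were held by 86.4% of 3561 genes in pulse and 89.7% of 3105 genes in trace. Ordered by Prg4 into 5 groups, lining cells held 3.38, 2.55, 2.74, 3.16 and 3.39 Creb5 UMIs per cell in pulse, from lowest to highest Prg4, and 1.55, 1.87, 2.26, 2.3 and 1.69 in trace, with no steady trend in either. Lining cells with an Erg UMI were too few to compare, 6 in pulse and 12 in trace.

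The relatives of Creb5 in the CREB/ATF and AP-1 families were taken as a list of 21 genes, of which 18 were measured at 20 CPM or more in a surface gate of either library. Between libraries 2 were higher by 2-fold, beside 2.13% of all genes, and 1 was lower, beside 9.2%. Fos went from 33.6 to 138 CPM, 4.11-fold (3.69 to 4.59), and Fosb from 8.3 to 26.3 CPM, and both are genes of the immediate response to stimulation. Crem, a modulator of cAMP responses, went from 60.2 to 27.3 CPM. The median log2 ratio of the list was -0.37, against -0.24 for all genes. Creb3l2 (0.522), Fosl2 (0.559) and Creb1 (0.613) had ratios close to the 0.539 of Creb5. Atf7 and Atf2, the closest relatives of Creb5, were at 216 and 119 CPM (pulse) and at 166 and 80 CPM (trace).

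Across zones most of the listed genes that passed 2-fold had the opposite direction to Creb5. In pulse deeper chondrocytes 7 of 19 were more than 2-fold higher than in surface cells, beside 17.7% of genes, and 2 were lower, beside 14.1%. Atf3, a stress-response factor, was at 845 against 118 CPM and Jun at 1183 against 191 CPM. In trace 7 of 20 were higher, beside 10.4% of genes, and 1 was lower, beside 14.5%. In the lining 4 of 18 were higher and 4 lower in pulse, beside 20.8% and 18.1% of genes, and 5 of 19 were higher and 2 lower in trace, beside 16.2% and 15.2%. Atf7, lower by 2-fold in the lining, stood at 107 against 216 CPM in pulse and 80.8 against 166 CPM in trace.

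Of 19 ETS relatives of Erg, 12 were measured in pulse, and there 5 were more than 2-fold lower in deeper than in surface chondrocytes, beside 14.1% of genes, and none higher, beside 17.7%. They were Fli1, Ets2, Etv6, Elk4 and Elf1. In trace 1 of 11, Fli1, was lower, beside 14.5%, and none higher, beside 10.4%. Fli1, a close relative of Erg, was at 32.7 against 8.02 CPM in pulse and 27.3 against 11.8 CPM in trace. The trace deeper level came from 103 cells, where 3 UMIs give 5.08 CPM. Etv6, a repressor of the family, was at 457 against 114 CPM and 213 against 132 CPM.

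Against surface chondrocytes, 2 of 12 ETS genes (Elk3 and Elk4) were higher by 2-fold and 3 lower in the pulse lining, beside 20.8% and 18.1% of genes. In the trace lining 1 of 11 (Elk4) was higher and 3 lower, beside 16.2% and 15.2%. The list's median log2 ratio was 0.47 in pulse, against 0.13 for all genes, and 0.25 in trace, against 0.04. The lower genes were Fli1, Ets1 and Etv6 in both libraries. Etv6 stood at 33.5 against 457 CPM in pulse and 33.4 against 213 CPM in trace, and Ets1 at 68.6 against 249 CPM and 97.1 against 258 CPM. Between libraries, Ets2 (191 to 61.3 CPM) and Etv6 (457 to 213 CPM) of 11 genes were 2-fold lower in trace surface cells, beside 9.2% of genes, and none was higher, beside 2.13%. In trace Fli1 was at 228 CPM in endothelial cells, 209 CPM in neutrophils and 461 CPM in B lineage cells, against 27.3 CPM in surface chondrocytes.

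Of 30 other regulators and signals of articular cartilage, 19 were measured in surface cells of the libraries. None was 2-fold higher in trace, beside 2.13% of genes, and 4 were 2-fold lower, beside 9.2%, namely Sox9 (3393 to 1669 CPM), Trps1 (4113 to 1559 CPM), Nfatc2 (37.6 to 13.1 CPM) and Runx2 (21.8 to 10.2 CPM). Trps1 is a zinc finger repressor of cartilage and hair development. Sox9 is the master factor of chondrocytes and Runx2 that of bone and hypertrophy. The list's median log2 ratio was -0.68, against -0.24 for all genes and -0.89 for Creb5. Across zones in pulse 5 of 22 were higher and 11 lower in deeper cells, beside 17.7% and 14.1% of genes. In trace 8 of 23 were higher and 8 lower, beside 10.4% and 14.5%, with Sox9 and Pth1r also serving as gate markers.

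Genes of this list that shared the direction of Creb5 and Erg across zones included Egfr and Barx1. Egfr, the receptor of epidermal growth factor, was at 463 CPM in surface and 17 CPM in deeper cells in pulse. In trace it was at 262 and 20.3 CPM. Barx1, a homeobox factor, was at 44.7 and 1.75 CPM in pulse and 60.8 and 5.08 CPM in trace. The trace deeper gate had 103 cells, and 5.08 CPM is what 3 UMIs give there. Runx2 had the other direction, at 21.8 and 228 CPM in pulse and 10.2 and 411 CPM in trace. Against surface cells, 4 of 22 were higher and 10 lower in the pulse lining, beside 20.8% and 18.1% of genes, and 3 of 19 were higher and 7 lower in trace, beside 16.2% and 15.2%. Osr2, a factor of joint mesenchyme, was at 80.3 against 8.3 CPM and 72.1 against 15.8 CPM, and so was higher in the lining as Creb5 was.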

How the data were processed

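The authors deposited 1 UMI count matrix per library with no normalization, from 3′ droplet libraries, and the 2 matrices were used as deposited. Cell Ranger 7.1.0 made them per the file headers, but the processing notes of the submitters list Cell Ranger 3.0.1 with mm10, along with STAR, HTSeq, Seurat and DESeq2 without their roles. Whether intron reads were counted is not given in the sources used here. Only barcodes with 500 or more UMIs were present.

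Cells with at least 500 genes and at most 10% mitochondrial UMIs were kept. UMIs were summed per gate and library, given as CPM with exact Poisson intervals, shares of cells with exact Clopper-Pearson intervals and ratios with exact conditional intervals. Gates needed 2 to 4 detected markers of a type, and these thresholds were set after the marker counts were seen. Genes at 20 CPM or more in either group of a contrast were compared, and 2-fold was the line for calling a difference. Links per cell used cells thinned to 2000 UMIs. Genes named for likeness were the 5 with the highest Pearson correlation, and list genes were named by 2-fold differences. Some names and contrasts were added after the values were seen: Col10a1, Atf2, Atf7, Creb3l2, Fosl2 and Creb1, the synovial contrasts and their genes (Ets1, Elk3, Elk4, Osr2), and the 10 further thinnings. Scrublet, run in scanpy 1.11.5, called 0 cells at its own threshold and so did not work; the alternatives left out the highest-scoring 5% (327 and 462 cells). The other alternatives changed the gene minimum, scaling, gates, depth and seed. Computations ran in Python 3.11.15 with numpy 2.4.6 and scipy 1.17.1, and were tested on simulated data. The members and gene lists were chosen with earlier results of these data known.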

Additional observations from a re-analysis of the deposited data

Results flagged for a closer look

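The raw ratio of Erg in trace against pulse lay on different sides of 1 between cell types. The ratio was 1.39 (1.17 to 1.65) in the cells that passed both chondrocyte gates, 0.809 (0.776 to 0.843) in surface chondrocytes and 0.358 (0.211 to 0.606) in Npy and Angptl7 connective cells, with intervals on opposite sides of 1. In the same order, the log2 ratio of Erg was 0.47, -0.31 and -1.48, and that of the median gene -0.26, -0.24 and -0.34. The share of genes with a lower ratio than Erg was 88.6%, 44.4% and 10.9%. Surface Erg thus lay near the median gene. The difference between these ratios was not tested, since each group is 1 library. In the cells of both gates Prg4 differed as well, at 2275 CPM (pulse) and 14189 CPM (trace), and the part of cell makeup in the Erg ratio was not tested.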

How the results depend on the processing

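Of 14 results with 110 recomputed values, 58 kept their size and direction, 49 moved by more than counting error and 3 reversed. A value counted as reversed only if the reported counting interval lay wholly on 1 side of no difference. Changes of sign in Prg4 for Creb5 in pulse, where that interval did not, are therefore among the moved values. No paired analysis was possible because each group is 1 library. The alternatives without Col10a1 or without shared barcodes, and the synovial results, were chosen after seeing the data. The cause of each move was not tested.

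The log2 ratio of trace over pulse in surface chondrocytes was -0.65 for Creb5 and -0.06 for Erg with scaling by the median ratio, -0.77 and -0.18 without mitochondrial and ribosomal RNA-associated transcripts, and -1.04 and -0.43 in cells without a Col10a1 UMI. Erg in the synovial lining over surface was -2.76 in pulse with 1 more marker per gate, and -3.22 in pulse and -3.47 in trace with joint clusters. Creb5 in the lining kept its value in every alternative run, within counting error.

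The log2 ratio of Acan for Creb5 moved in pulse to -0.33 with 1000 or more genes per cell and to -0.16 without Col10a1. In trace it moved to -0.39 with 1000 genes, -0.30 without shared barcodes, -0.25 with clusters, -0.16 without Col10a1, -0.26 at 1000 UMIs and -0.30 at 3000. For Erg it moved in pulse to -0.17 with 1 more marker and reversed to 0.12 without Col10a1. In trace it moved to -0.18 with 1 more marker, -0.33 without shared barcodes, -0.18 with clusters, -0.29 with a second seed, -0.16 without Col10a1 and -0.21 at 1000 UMIs.

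The log2 ratio of Prg4 for Creb5 moved in pulse to -0.11 with 1 more marker, 0.02 with 1000 genes, -0.05 without shared barcodes, 0.05 without the highest-scoring 5%, 0.03 with clusters, 0.07 with a second seed and -0.05 at 3000 UMIs. In trace it moved to -0.12 with 1 more marker, -0.12 with 1000 genes, -0.12 without shared barcodes, -0.15 without the highest-scoring 5%, -0.15 with a second seed, -0.14 at 1000 UMIs and -0.08 at 3000, and reversed to 0.02 with clusters. For Erg it moved in pulse to -0.07 with 1 more marker, 0.00 with a second seed, -0.22 without Col10a1 and -0.16 at 1000 UMIs, and reversed to 0.02 at 3000. In trace it moved to -0.12 without shared barcodes, -0.13 without the highest-scoring 5%, -0.02 with clusters, -0.16 with a second seed, -0.07 without Col10a1, -0.16 at 1000 UMIs and -0.13 at 3000. A second seed alone moved these Prg4 values by more than their counting intervals, so differences of this size are not read. At 2000 UMIs most surface cells hold 0 or 1 Erg UMI.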
